A study of Homo sapiens with 6 samples.

Results

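Tubulins form microtubules, the polymers that taxane drugs bind and stabilise, and the 10 genes described here encode 6 beta tubulins (TUBB, TUBB2A, TUBB2B, TUBB3, TUBB4B and TUBB6), 2 alpha tubulins (TUBA1A and TUBA4A), the gamma tubulin TUBG1 and the tubulin-binding protein stathmin (STMN1). They were chosen by name, with all probe sets annotated to 1 of them and to no other gene. All 10 genes were measured, out of 19775 genes in all, by 15 of the 54613 probe sets tested. A further 2 probe sets were annotated to a member together with another gene and are described apart.

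The cells were IGROV1, an established human ovarian carcinoma line, grown without drug treatment. Hoechst 33342, a dye that binds DNA and that some membrane transporters export, was used to sort cells that keep little of it, the side population (SP), from the other cells (non-SP). There were 3 samples of each group, each on 1 array, and both groups passed through the dye and the sort. The labels call them biological replicates and say nothing of separate cultures; p-values here reflect only how far these samples scatter, part of which can be technical. Because an average over many cells was measured, fewer cells with a transcript and less of it per cell cannot be told apart.

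An alpha and a beta tubulin fold with the help of chaperones into a dimer, and dimers add to the growing ends of microtubules. The isotypes differ mainly in their acidic C-terminal tails, where modifying enzymes and motor proteins act. Taxanes bind beta tubulin within the polymer and hold cells in mitosis. A raised level of the class III isotype, TUBB3, has been linked to a poorer response to taxanes in ovarian and other carcinomas, and the exporter P-glycoprotein, encoded by ABCB1, removes taxanes from cells. Free tubulin dimers also lead to the decay of tubulin mRNAs during translation, a feedback known as autoregulation.

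The arrays had median log2 values between 5.59 and 5.64, and 3 negative control probe sets for a bacterial gene averaged between 2.82 and 2.96 per array. The first principal component of all genes, with 45.8% of the variance, put non-SP replicates 1 and 3 and SP replicate 1 on one side and non-SP replicate 2 and SP replicates 2 and 3 on the other. These are called array sets A and B here; they were read from the data and are not groups of the study. The ACTB 3' minus 5' control signal, a measure of how far RNA or its amplified copy is shortened at the 5' end, was 2.02 to 2.29 log2 units in set A and 2.46 to 2.55 in set B. Between SP (2.34 ± 0.22, SD, n = 3) and non-SP (2.29 ± 0.26, SD, n = 3) this signal gave an exact permutation p of 0.90, two-sided, where 3 against 3 samples cannot go below 0.1. The corresponding GAPDH signal overlapped between the sets (0.04 to 0.15 and 0.04 to 0.36). Of the epithelial and ovarian carcinoma markers, EPCAM averaged 12.05 in SP and 12.20 in non-SP samples, whereas the leukocyte markers CD3E and PTPRC lay below the negative controls on 6 and 5 of the 6 arrays and the leukocyte markers CD14 and LYZ on 0 of 6. Of the 8 carcinoma markers, 0 passed an adjusted p of 0.05 in limma and 2 had an unadjusted p under 0.05: KRT8 at -0.71 (SE 0.22), whose groups did not overlap, and CDH1 at 0.79 (SE 0.31). Groups did not overlap for 2 of the 8 carcinoma markers, KRT8 and EPCAM (-0.15, SE 0.11), both with SP lower. Below the array median on all 6 arrays was 1 of the 8 carcinoma markers, MUC16. So were 4 of 4 leukocyte, 4 of 5 fibroblast, 3 of 5 endothelial and 1 of 5 neuronal markers measured. Of the 19 markers of other cell types, 0 passed an adjusted p of 0.05 in limma and 1 had an unadjusted p under 0.05. Groups did not overlap for 1 fibroblast marker with SP higher (LUM, below the negative controls on 5 of 6 arrays). With SP lower this held for 2 endothelial (KDR and VWF) and 2 neuronal markers (SNAP25 and SYN1). The share over all genes was 11.9%.

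The comparison of SP with non-SP samples asks whether cells that export the dye differ in the mRNAs of stathmin and of the tubulins, on which taxanes and stathmin act. Protein was not measured. No tubulin or stathmin gene passed the test: 0 of 10 members had an adjusted p under 0.05 in limma, the share over all genes being 0.00506% (1 of 19775), and 0 of 10 had an unadjusted p under 0.05, the share over all genes being 6.78%. The SP and non-SP values overlapped for all 10 members, while the groups did not overlap for 11.9% of all genes. Of the 10 differences, 8 lay below 0, where 54.8% of all genes did. Their median was -0.13 log2 units, beside -0.02 over all genes. By probe set, 0 of 15 passed an adjusted p of 0.05 (0.00183% of all probe sets), 0 of 15 had an unadjusted p under 0.05 (7.31%) and 0 of 15 had groups that did not overlap (12.5%).

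**Figure D1:**
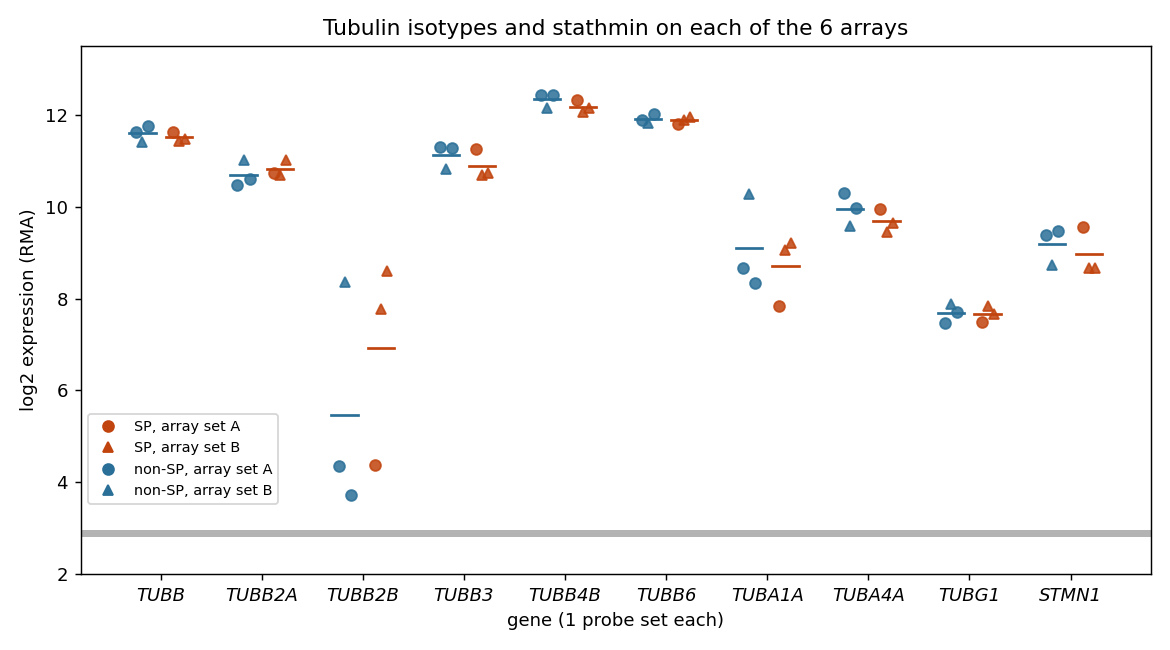
Log2 expression of the 10 genes (x axis, 1 probe set each) on the 6 arrays; each point is 1 array, circles are array set A and triangles array set B, short lines are group means and the grey band is the range of the negative controls. SP and non-SP points overlap for every gene, and for TUBB2B the triangles (7.77 to 8.60) stand far above the circles (3.72 to 4.38).

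TUBB, the class I isotype that most dividing cells express, was measured by 3 probe sets. The brightest had log2 levels of 11.62, 11.41 and 11.76 in non-SP samples and 11.63, 11.42 and 11.47 in SP samples. Each SP value had a non-SP value close to it, and the 3 arrays of set B were the 3 lowest. The difference of SP minus non-SP was -0.09 (SE 0.14, limma adjusted p = 0.95); as a fold it was 0.94, and its 95% confidence interval ran from 0.75 to 1.18. The other 2 probe sets differed by -0.13 (SE 0.15) and -0.09 (SE 0.15) in the fit over all probe sets, so the 3 probe sets of the gene had the same sign and nearly the same size.

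TUBB3, the class III isotype typical of neurons, had levels of 11.29, 10.83 and 11.29 in non-SP samples and 11.25, 10.69 and 10.74 in SP samples. SP replicate 1 lay with non-SP replicates 1 and 3, well above the other 3 arrays. The difference was -0.24 (SE 0.21, adjusted p = 0.91), or 0.85-fold with a 95% interval of 0.60 to 1.20. A rise of this probe set's signal by more than 1.20-fold in SP cells therefore lies outside this interval, and a fall to 0.60-fold does not. The second TUBB3 probe set gave -0.22 (SE 0.20). The identifier of each TUBB3 probe set, as of each TUBB4B probe set, carries the letter x, the maker's mark for probes that may also bind other sequences. Whether the interval holds for the TUBB3 transcript alone was not tested.

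TUBB4B, the class IVb isotype found in most tissues and in cilia, had levels of 12.42, 12.16 and 12.44 in non-SP and 12.32, 12.05 and 12.15 in SP samples. Its difference was -0.17 (SE 0.14, adjusted p = 0.90), with a fold of 0.89 and an interval of 0.71 to 1.12. The second probe set differed by -0.25 (SE 0.16), with 11.65, 11.40 and 11.66 in non-SP and 11.55, 11.22 and 11.16 in SP samples. On both probe sets SP replicate 1 lay above non-SP replicate 2, which is why the groups overlapped.

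TUBB6, the class V isotype, was the steadiest member across the 6 arrays. It had levels of 11.88, 11.83 and 12.03 in non-SP and 11.81, 11.88 and 11.95 in SP samples. The difference was -0.03 (SE 0.12), or 0.98-fold with an interval of 0.81 to 1.18, and array sets A and B overlapped. Its sign turned to 0.02 without non-SP replicate 3 and to 0.001 without SP replicate 1, values within the spread of the arrays.

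The class II isotypes are encoded by the paralogous genes TUBB2A and TUBB2B, which lie near each other on chromosome 6. TUBB2A had levels of 10.48, 11.02 and 10.60 in non-SP samples and 10.73, 10.70 and 11.02 in SP samples. Its difference was 0.12 (SE 0.18, adjusted p = 0.95), with a fold interval of 0.80 to 1.46. TUBB2B, known from brain development and from disorders of neuronal migration, had levels of 4.35, 8.36 and 3.72 in non-SP samples and 4.38, 7.77 and 8.60 in SP samples. The values fell into a low cluster of non-SP replicates 1 and 3 with SP replicate 1 (set A) and a high cluster of the other 3 arrays (set B), so that each group held both kinds of array. The difference over all arrays was 1.44 (SE 1.52, adjusted p = 0.93), and its 95% interval of -2.19 to 5.07 allows anything from a strong fall to a strong rise. Within set A, SP replicate 1 lay 0.35 above the mean of the non-SP arrays, and within set B the SP arrays averaged 0.17 below non-SP replicate 2 (difference -0.17). With the array set as a block the difference was 0.09 (SE 0.30, adjusted p = 0.95).

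The spread of TUBB2B within the groups was among the widest on the array: 4 of 19775 genes, TUBB2B included, had a residual standard deviation at least as large. The low values were above the negative controls on all 3 arrays of set A but below the array medians. The probe set annotated to TUBB2A and TUBB2B together did not follow this pattern. It had levels of 8.07, 7.20 and 7.42 in non-SP and 7.77, 6.95 and 7.42 in SP samples, so the 3 arrays with high TUBB2B values were here the 3 lowest, although 7.42 in set A and 7.42 in set B lay within 0.01 of each other. Its difference was -0.18 (SE 0.30). TUBB2B has 1 probe set of its own, and its identifier carries the letter x, the maker's mark for probes that may also bind other sequences, as do those of 7 of the 15 probe sets. Whether that probe set detects TUBB2B alone was not tested.

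**Figure D2:**
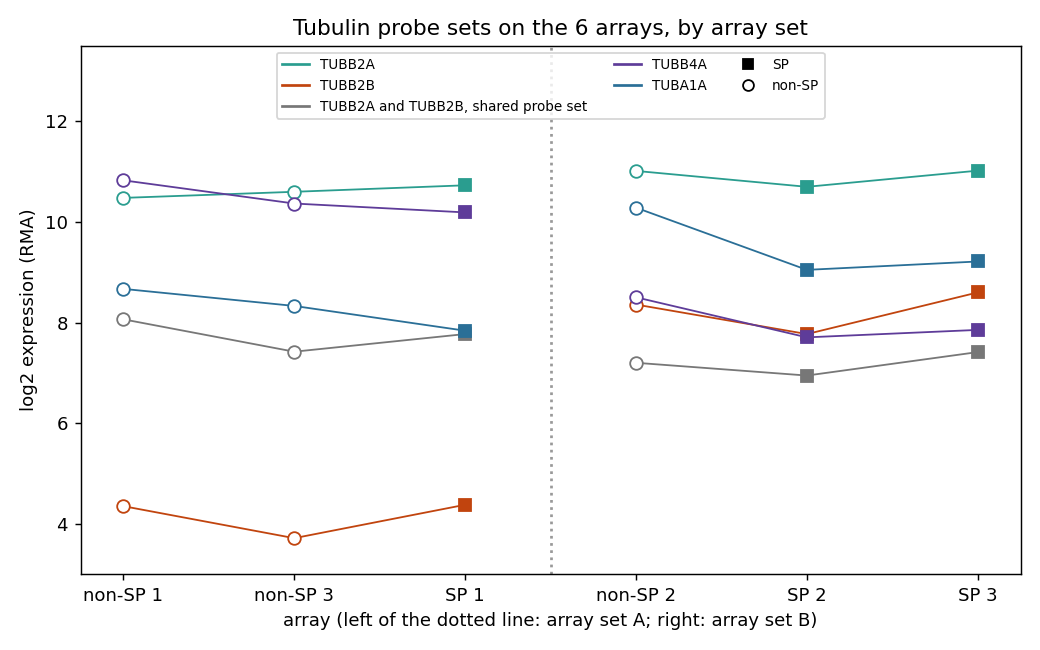
Log2 expression (y axis) of 5 tubulin probe sets on the 6 arrays (x axis), with set A left and set B right of the dotted line; filled squares are SP and open circles non-SP samples. TUBB2B and TUBA1A were higher and TUBB4A was lower on all 3 arrays of set B, while the probe set shared by TUBB2A and TUBB2B was not higher there.

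Of the alpha tubulins, TUBA1A, the main alpha isotype of the developing brain, had levels of 8.67, 10.29 and 8.33 in non-SP and 7.84, 9.05 and 9.22 in SP samples. The lowest value was an SP sample and the highest a non-SP sample, but the groups overlapped widely. Over all arrays the difference was -0.39 (SE 0.59, adjusted p = 0.95), or 0.76-fold with an interval of 0.29 to 2.01. Within array set A the SP value lay below both non-SP values (difference -0.66), and within set B both SP values lay below the non-SP value (difference -1.15). With the array set as a block the difference was -0.91 (SE 0.17), with an interval of -1.33 to -0.49 and an unadjusted p of 0.0018 in limma, but it did not pass over all genes (adjusted p = 0.17, range 0.17 to 1.00 over 16 alternatives). Since the sets were read from the same arrays, p-values from that fit may be too small, and in it 10.8% of all genes had an unadjusted p under 0.05. The sign turned to 0.20 without non-SP replicate 2, to 0.04 without SP replicate 1 and to 0.14 with array weights.

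TUBA4A, whose product is made without the C-terminal tyrosine of other alpha tubulins, had levels of 10.31, 9.57 and 9.97 in non-SP and 9.94, 9.45 and 9.64 in SP samples. Its difference was -0.27 (SE 0.22, adjusted p = 0.90), or 0.83-fold with an interval of 0.57 to 1.20. With the array set as a block it was -0.11 (SE 0.14). As for TUBB3 and TUBB4B, the highest SP value was that of replicate 1.

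TUBG1 encodes gamma tubulin, which starts new microtubules at centrosomes. It had levels of 7.46, 7.88 and 7.70 in non-SP and 7.49, 7.83 and 7.65 in SP samples, so that the values of the groups interleaved. The difference was -0.02 (SE 0.16), with a fold interval of 0.76 to 1.28. It turned to 0.08 without non-SP replicate 2, to 0.06 without SP replicate 1 and to 0.05 with array weights.

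Stathmin, encoded by STMN1, binds tubulin dimers and promotes the shrinking of microtubules. The brighter of its 2 probe sets had levels of 9.39, 8.74 and 9.46 in non-SP and 9.56, 8.66 and 8.67 in SP samples. SP replicate 1 was the highest of all 6 arrays and the other 2 SP samples the lowest. The difference was -0.23 (SE 0.31, adjusted p = 0.94), with a fold interval of 0.51 to 1.42, and with the array set as a block it was 0.03 (SE 0.11). The dimmer probe set had 5.41, 5.53 and 5.49 in non-SP and 5.65, 5.00 and 4.19 in SP samples. The difference was -0.53 (SE 0.35), with 1 of 6 values above the array's median. A further probe set, annotated to STMN1 together with the microRNA gene MIR3917, differed by -0.13 (SE 0.21).

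**Figure D3:**
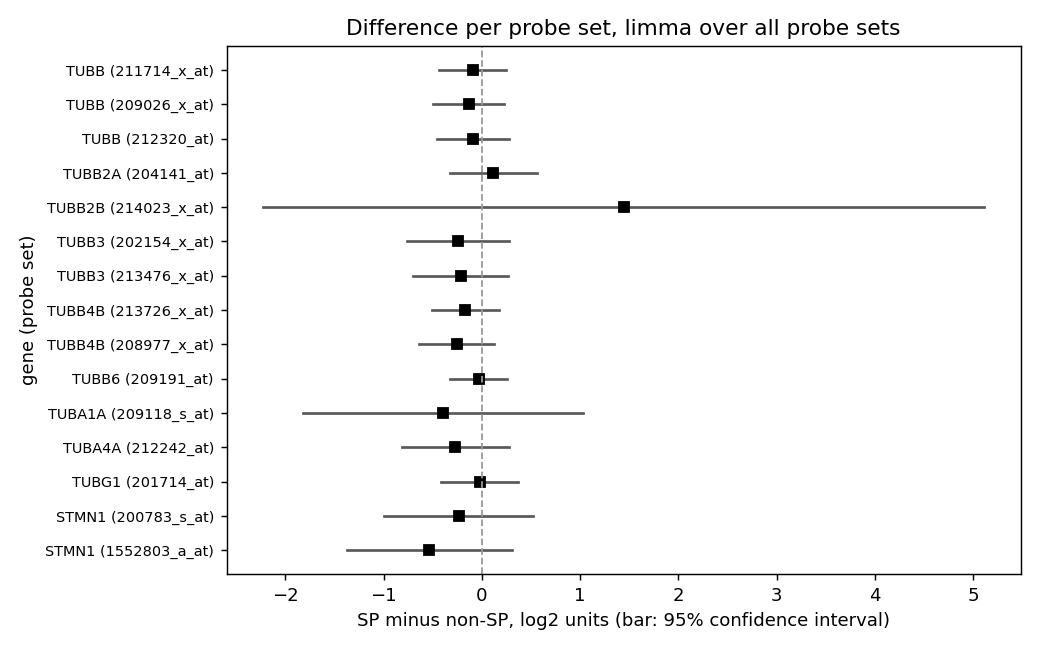
SP minus non-SP difference in log2 units (x axis) for the 15 probe sets of the 10 genes (y axis), with 95% confidence intervals from limma. All 15 intervals include 0; that of TUBB2B runs from -2.23 to 5.11 and that of TUBA1A from -1.82 to 1.03, while those of TUBB6 and TUBB4B are much narrower.

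The arrays of these genes parted more clearly by array set than by group. The values of sets A and B did not overlap for 7 of 10 members, where this held for 26.9% of all genes; as the sets were read from all genes, this is a description with no test. TUBB, TUBB3, TUBB4B, TUBA4A and STMN1 were lower on every array of set B, and TUBB2B and TUBA1A higher; over all genes the shares were 13.7% and 13.1%. For TUBB3 the arrays of set A read 11.25 to 11.29 and those of set B 10.69 to 10.83. For STMN1 they read 9.39 to 9.56 and 8.66 to 8.74. TUBB2A, TUBB6 and TUBG1 overlapped between the sets. The ACTB 3' minus 5' signal moved with these values, and with it as a covariate 0 of 10 members passed (lowest limma adjusted p = 0.60, for TUBA4A at -0.21, SE 0.11); its part in the split between the sets was not tested.

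Within the array sets the SP minus non-SP differences of most members were small. Apart from TUBA1A and TUBB2B they ranged from -0.20 (TUBA4A) to 0.19 (TUBB2A) in set A and from -0.16 (TUBB2A) to 0.08 (TUBB6) in set B. TUBB3, TUBB4B, TUBA1A, TUBA4A and TUBG1 were below 0 in both sets, 5 of 10 members, where 32.3% of all genes were, and 0 of 10 were above 0 in both, where 24.2% of all genes were. The overlap of the groups depended on the array that stood apart from the others of its group. Without non-SP replicate 2 the groups did not overlap for 5 members (TUBB2A and TUBB2B with SP higher, TUBB3, TUBB4B and TUBA4A with SP lower; 26.2% of all genes), and without SP replicate 1 for 3 (TUBB3, TUBB4B and STMN1, SP lower; 27.2% of all genes). The non-SP arrays left without non-SP replicate 2 were all in set A. The SP arrays left without SP replicate 1 were all in set B. In these 2 fits a difference between groups cannot be fully told apart from the split into sets. Some gaps were narrow: TUBB2B read 4.38 in SP replicate 1 and 4.35 in non-SP replicate 1. TUBB4B read 12.15 in SP replicate 3 and 12.16 in non-SP replicate 2. Without non-SP replicate 1 or 3 or SP replicate 2 or 3 the count was 0 (19.9%, 20.9%, 18.1% and 19.0% of all genes).

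**Figure D4:**
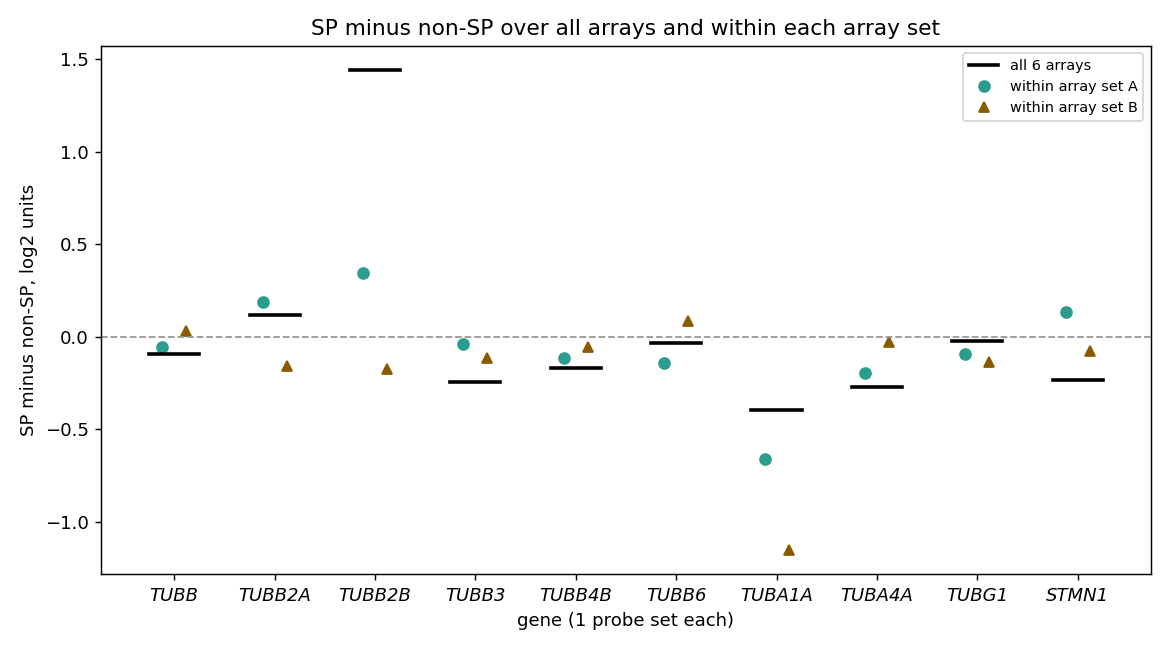
SP minus non-SP in log2 units (y axis) for the 10 genes (x axis): the black line is the difference over all 6 arrays, the circle that within array set A and the triangle that within array set B. TUBB2B goes from 1.44 over all arrays to 0.35 and -0.17 within the sets, and TUBA1A from -0.39 to -0.66 and -1.15.

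The promoters are shown for TUBB2B and TUBA1A, which were high on the same 3 arrays, for TUBB2A, the paralog of TUBB2B that did not share its split, and for TUBB, which was low on those arrays. The 250 bases before the transcription start are given 5' to 3' on the gene's strand, from RefSeq on GRCh38.p14, which held windows for 10 of 10 members. Capitals mark the CCAAT box (CCAAT), the GC box (GGGCGG) and the TATA box (TATAAA), searched on both strands, with no overlap between matches. The windows are chr6:3227654-3227903 (minus strand) for TUBB2B, chr12:49189081-49189330 (minus strand) for TUBA1A, chr6:3157545-3157794 (minus strand) for TUBB2A and chr6:30720102-30720351 (plus strand) for TUBB.
TUBB2B: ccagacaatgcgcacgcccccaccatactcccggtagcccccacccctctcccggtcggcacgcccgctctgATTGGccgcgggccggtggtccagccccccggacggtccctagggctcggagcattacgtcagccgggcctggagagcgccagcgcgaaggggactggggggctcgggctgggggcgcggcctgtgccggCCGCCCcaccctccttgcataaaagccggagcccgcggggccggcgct
TUBA1A: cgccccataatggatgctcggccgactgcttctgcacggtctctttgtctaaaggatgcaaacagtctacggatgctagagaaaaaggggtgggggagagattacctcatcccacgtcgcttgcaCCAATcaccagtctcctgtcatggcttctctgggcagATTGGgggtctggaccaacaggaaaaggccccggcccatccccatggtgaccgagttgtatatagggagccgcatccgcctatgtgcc
TUBB2A: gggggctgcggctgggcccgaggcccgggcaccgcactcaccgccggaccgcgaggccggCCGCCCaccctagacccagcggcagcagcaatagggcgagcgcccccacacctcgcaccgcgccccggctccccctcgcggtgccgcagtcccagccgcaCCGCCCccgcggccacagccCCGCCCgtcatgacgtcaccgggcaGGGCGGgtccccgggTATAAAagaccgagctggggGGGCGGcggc
TUBB: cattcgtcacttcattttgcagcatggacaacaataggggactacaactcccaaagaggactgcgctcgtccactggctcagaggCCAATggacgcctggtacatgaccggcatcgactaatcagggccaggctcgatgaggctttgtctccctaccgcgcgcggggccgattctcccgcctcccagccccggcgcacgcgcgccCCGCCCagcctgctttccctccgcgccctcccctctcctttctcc
TUBB2B held 1 CCAAT and 1 GGGCGG match, and TUBA1A held 2 CCAAT and 0 GGGCGG matches. TUBB2A held 0 CCAAT matches, 5 GGGCGG matches and 1 TATAAA match, and TUBB held 1 CCAAT and 1 GGGCGG match. The other RefSeq window of TUBB, not shown, held 0 CCAAT and 5 GGGCGG matches. The TUBB2A and TUBB2B windows shared 52.7% of 283 aligned positions, and the other pairs among these 4 shared between 47.8% and 50.2%. Over the 15 windows of the 10 members, 8 held CCAAT, 10 held GGGCGG and 1 held TATAAA, where 32.0%, 42.6% and 10.7% of all 35116 promoter windows did. A match is only a match of letters, and no factor was measured at these sites.

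Among the other tubulin genes, TUBB4A, the class IVa isotype of the nervous system, varied most. It had levels of 10.83, 8.50 and 10.37 in non-SP and 10.19, 7.71 and 7.86 in SP samples on its 1 probe set, so its low arrays were those on which TUBB2B was high. Its difference was -1.32 (SE 0.84, adjusted p = 0.87), and 52 of 19775 genes, itself included, had a residual spread at least as wide. TUBA1B and TUBA1C, the alpha tubulins common in dividing cells, differed by -0.01 (SE 0.12) and 0.04 (SE 0.11). The 6 probe sets of TUBA1B ranged from -0.03 to 0.68. The 0.68 came from a dim probe set, whose values (3.49 to 5.15) were all below the array medians. The other TUBA1B probe sets ranged from -0.03 to 0.04. TUBAL3, an alpha tubulin-like gene, had levels of 4.40, 3.68 and 4.43 in non-SP and 3.34, 3.30 and 3.22 in SP samples, without overlap but all below the array medians, with a difference of -0.89 (SE 0.22, limma adjusted p = 0.50). TUBE1, the epsilon tubulin of centrioles, differed by -0.80 (SE 0.26, limma adjusted p = 0.61) on its brighter probe set and by 0.45 on the other. STMN3, a relative of stathmin, differed by -0.17 (SE 0.53).

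Counting all 13 lists of microtubule, spindle checkpoint and taxane genes, 0 of 122 measured genes of 131 listed passed an adjusted p of 0.05 in limma, and 6 had an unadjusted p under 0.05. Groups did not overlap for 8 of the 122 (6.56%, beside 11.9% of all genes), 2 with SP higher and 6 with SP lower, and the median difference was -0.01. Both genes with SP higher, ABCB1 and ABCC2, were in the list of taxane transport and metabolism; in the other 12 lists the counts were 0 higher and 6 lower of 112 measured genes (5.36%). The gamma tubulin ring complex, which holds TUBG1 at nucleation sites, had 9 measured members, of which 0 passed, with a median of -0.04; TUBGCP3 differed by 0.24 (SE 0.19) and MZT1 by -0.17 (SE 0.15), but the probe sets of each gene differed in sign (-0.54 to 0.97 and -0.17 to 0.52). The 19 measured genes of tubulin folding had a median of 0.01, with 0 past the test and 1, the prefoldin subunit PFDN4, without overlap (-0.32, SE 0.13).

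The 14 microtubule-associated proteins had a median of -0.12 and the 12 plus-end tracking proteins one of 0.05, again with 0 members past the test. MAP9, which stabilises spindle microtubules, differed by -0.49 (SE 0.19), and CKAP5, a microtubule polymerase, by 0.22 (SE 0.16). Among 10 depolymerising and severing proteins the median was 0.06, with the severing enzyme FIGN at 0.38 (SE 0.20) and its 4 probe sets between 0.38 and 0.90. Of 21 enzymes and partners of tubulin modification, VASH2, a tubulin detyrosinase, had levels of 6.07, 5.88 and 4.78 in non-SP and 4.40, 4.56 and 4.02 in SP samples. Its groups did not overlap, and its difference was -1.25 (SE 0.35, limma adjusted p = 0.58), while its 3 probe sets ranged from -1.25 to -0.15. The 3 genes of tubulin mRNA autoregulation had a median of 0.06: TTC5, which recognises new tubulin chains at the ribosome, differed by -0.13 (SE 0.15) and its partner SCAPER by 0.95 (SE 0.41, limma adjusted p = 0.74). The 3 probe sets of TTC5 ranged from -0.22 to 0.31 and those of SCAPER from 0.39 to 0.95. The SCAPER probe set with the difference of 0.95 was higher on all set B arrays than on any set A array, and it differed by 0.84 within set A and 0.40 within set B. The 13 spindle checkpoint genes, which act when taxanes disturb attachment to the spindle, had a median of 0.09, with the kinase gene TTK at 0.91 (SE 0.32, limma adjusted p = 0.67).

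**Figure D5:**
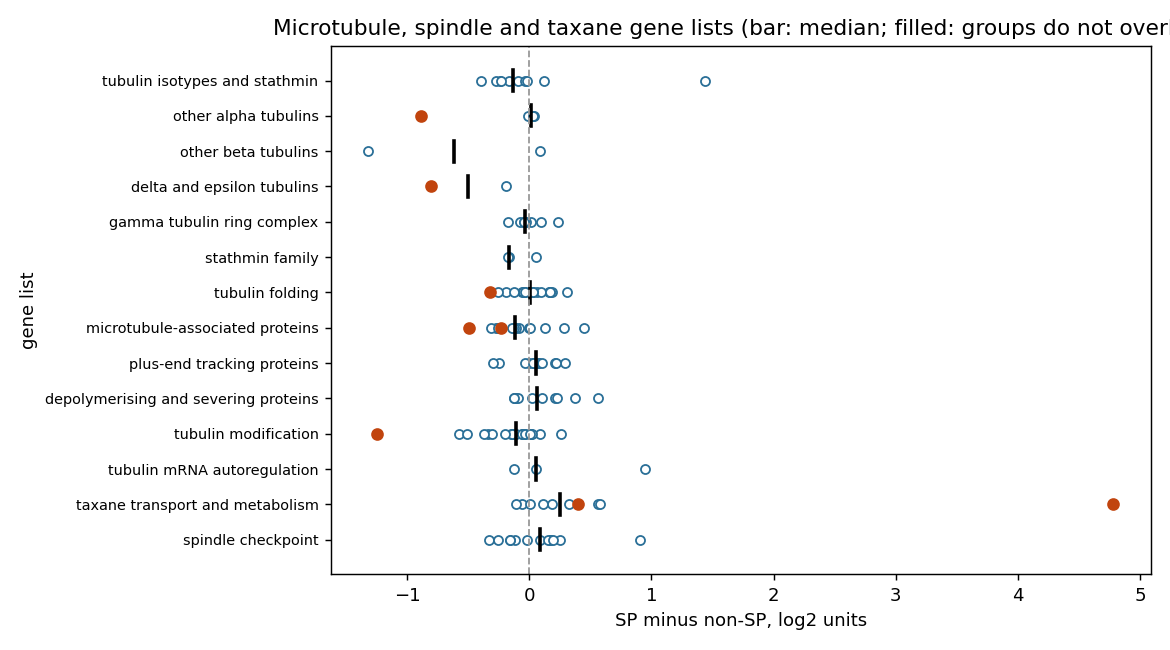
SP minus non-SP in log2 units (x axis) for each measured gene of the tubulin and stathmin genes and of the 13 lists of microtubule, spindle checkpoint and taxane genes (y axis); bars are list medians and filled points are genes whose SP and non-SP values do not overlap. ABCB1 stands apart at 4.78, while the medians of all lists but those of other beta tubulins (-0.61) and of delta and epsilon tubulins (-0.50) lie between -0.17 and 0.25.

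Of 10 measured genes of taxane transport and metabolism, 8 lay above 0, where 8948 of all 19775 genes did. The median of the 10 was 0.25, beside -0.02 over all genes, and 0 passed the test over all genes. On each array the same 3 of the 10 were dimmer than the negative controls, and 5, these 3 included, were dimmer than the array median. Of the 3, CYP2C8 (0.006) and SLCO1B3 (0.12) counted among the 8, and SLCO1B1 (-0.06) did not. ABCB1 had levels of 4.26, 5.81 and 4.59 in non-SP and 8.61, 10.16 and 10.22 in SP samples, a difference of 4.78 (SE 0.56, limma adjusted p = 0.12), with 4.19 within set A and 4.38 within set B. Its dimmer probe set had 4.86, 5.05 and 4.98 in non-SP and 6.40, 8.20 and 7.66 in SP samples, a difference of 2.45. ABCC2, an exporter of drug conjugates and of taxanes, also had groups that did not overlap, with a difference of 0.40 (SE 0.17, limma adjusted p = 0.73). Its values (4.07 to 4.85) were all below the array medians. ABCC10, another taxane exporter, differed by 0.57 (SE 0.36), but by -0.22 within set A and 1.07 within set B. The drug-metabolising enzyme gene CYP3A5 differed by 0.58 (SE 0.26), with 0.63 within set A and 0.89 within set B. The probe sets of ABCC10 ranged from 0.20 to 0.57 and those of CYP3A5 from -0.07 to 0.58.

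The genes with the pattern most like that of TUBB over the 6 arrays, among 9886 genes above the median level, were NADK2, HNRNPL and FLRT3, with Pearson r between 0.990 and 0.995. For TUBB3 they were CETN2, TARDBP and ZNF445, with r between 0.995 and 0.998. With r of at least 0.9 there were 438 genes for TUBB and 639 for TUBB3. The arrays share the split into sets A and B, so these correlations describe in part which genes follow that split: CETN2, for instance, read 11.18 to 11.25 in set A and 10.62 to 10.72 in set B.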

How the data were processed

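Expression was measured on 1 array per sample in 3 SP and 3 non-SP samples of IGROV1. The authors' deposited table holds log2 values, 1 per probe set and sample, made with RMA (affy, R 2.8.1) per the submitters' processing notes. This method subtracts background, gives all arrays 1 distribution and summarises probes, so a global change in RNA cannot be seen and low differences are compressed. Per the labels' protocols, RNA from sorted cells was amplified before labelling with biotin. Its other settings were not given in the sources. Precision is limited by the small number of arrays.

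Of 54675 probe sets, 62 controls were left out, and 41091 of the others carried 1 gene symbol, 1801 several and 11721 none; 41037 were matched by Entrez ID to RefSeq (GRCh38.p14). Each gene's value came from its probe set of highest average across the 6 samples, and dim genes were kept. The difference SP minus non-SP was tested, two-sided, by lmFit and eBayes of limma 3.58.1 (R 4.3.3) over all 19775 genes and over all 54613 probe sets, adjusted by Benjamini-Hochberg, with a threshold of 0.05 and intervals at 95%. Standard errors, intervals and adjusted p for single genes are limma's. Probe sets of paralogous tubulins can share targets. In simulated data, 200 of the 19775 genes were given a change. The fit found 61.2% of genes with a shift of 1 log2 unit, 95.2% with 2 and 98.8% with 4. Over 5 simulations there were 44 false calls. On the real arrays ABCB1, at 4.78, did not pass (limma adjusted p = 0.12), and 1 of 19775 genes did. The simulated shares may therefore overstate what this fit could find among the tubulin genes.

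The members and lists were chosen with earlier results of these data known. The rule named all 10 members, up to 4 genes per list by p, ABCB1 and the 3 genes most like TUBB and TUBB3; TUBA1B, TUBA1C, CKAP5 and single marker genes serve as reference values chosen after their values were seen. Results were recomputed with the replicate number or the array set as a block, with probe sets averaged per gene or tested singly, without genes below the median level, after cyclic loess or centring on array medians, with limma's robust trended prior, with array weights, with the ACTB control signal as covariate, and without each sample in turn. Figures were drawn with matplotlib 3.10.9 in Python 3.11.15.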

Additional observations from a re-analysis of the deposited data

How the results depend on the processing

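As a gene, no member passed an adjusted p of 0.05 in any of the 16 alternatives (lowest 0.17, for TUBA1A with the array set as a block). TUBB2B was not tested among genes above the median level, its mean lying below it. No member probe set passed in the fit over all probe sets or in the alternatives that were run on that fit. Over 159 member results, 150 kept their direction and their side of the threshold and 9 changed sign. The sign changed for TUBB6 without non-SP replicate 3 (0.025) and without SP replicate 1 (0.001), and for TUBA1A without non-SP replicate 2 (0.20), without SP replicate 1 (0.04) and with array weights (0.14). It changed for TUBG1 without non-SP replicate 2 (0.078), without SP replicate 1 (0.06) and with array weights (0.049), and for STMN1 with the array set as a block (0.029); the cause was not tested. With 1 sample left out the differences ranged from -0.074 to 0.025 for TUBB6, from -0.78 to 0.20 for TUBA1A, from -0.13 to 0.078 for TUBG1 and from 0.56 to 2.88 for TUBB2B, and the count of members without overlap from 0 to 5. The count of all genes past the threshold, 1 in the fit reported, was 0 among genes above the median level and with probe sets averaged per gene, 3 with the ACTB 3' minus 5' covariate, 5 with the array set as a block and 12 with array weights, and ranged from 1 to 2 with 1 sample left out. The replicate block called 3 genes and 0 members. Same-numbered samples correlated at 0.45, 0.38 and -0.21 in their deviations from the group means. The samples numbered 1 were both in set A and those numbered 2 both in set B, while those numbered 3 were not in the same set. These correlations therefore cannot tell pairing from the split into sets, and whether the numbers pair the samples is unknown. Overlap of the groups has no value under a block, covariate, weights or another prior. Dim values such as TUBB2B on set A arrays lie close to background, where RMA compresses differences.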
